A study of Mus musculus with 14 samples.

Results

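The regions described here are stretches of chromatin of the mouse genome whose accessibility the authors called as different between groups of yolk sac progenitors, and which cover the start of exactly 1 gene while being narrower than 2999 bp. They were taken from the authors' lists of called regions by that rule, in each of 3 comparisons, as regions paired with a single gene, marked as overlapping its start, and below the width limit. The rule gave 2634 of 9954 regions, each counted in its own comparison, at the starts of 1972 genes. The other regions were 6138 that lay upstream of 1 gene without reaching its start, 694 paired with more than 1 gene, 386 that covered 1 gene start but were wider, and 102 that covered a whole gene or lay inside one. Because the lists hold called regions only, the rule used the measured contrast, and the values below describe the regions without testing them.

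The assay was ATAC-seq, which uses the transposase Tn5 to insert sequencing adapters into open DNA. The cells were erythro-myeloid progenitors, blood progenitors that arise in the yolk sac and give rise to red cells, megakaryocytes, mast cells and myeloid cells. They were sorted from C57BL/6 embryos at stage E10.5, 500 cells a sample, and libraries were amplified for 14 PCR cycles. All 14 samples carried Ezh2fl/fl. Of these, 5 also carried Tie2-CreTg/+ (Tie2 KO), 3 carried Vav-CreTg/+ (Vav KO), and 3 from the Tie2 line (Tie2 WT) and 3 from the Vav line (Vav WT) carried no Cre transgene. Tie2-Cre is active in endothelium and in the blood cells that arise from it, whereas Vav-Cre is active in blood cells. The comparisons were Tie2 KO with Tie2 WT, Vav KO with Tie2 WT, and Tie2 KO with Vav KO. No comparison used Vav WT, so in the contrast of Vav KO with Tie2 WT the mouse line and the deletion of Ezh2 cannot be told apart. The comparisons pair the same 3 groups with each other, so their fold changes are not independent and are set side by side only. Nothing in the labels says whether samples of a group came from separate litters.

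PRC2, a Polycomb complex, places methyl groups on lysine 27 of histone H3, and Ezh2 is its main enzyme. In many cell types PRC2 occupies CpG-rich starts of genes for developmental regulators that are silent in that cell type, and an accessible gene start is usually, although not always, one that is or can be transcribed. The sequence around a start binds the general transcription machinery, so a narrow region over a start is mostly promoter and proximal sequence.

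For each region the lists give a log2 fold change with its adjusted p, and no value per sample. Depth, the level of accessibility in a group, the spread between embryos and the identity of the sorted cells by their marker genes could therefore not be examined, and the precision of a single region is known only from the adjusted p in the authors' deposited table. The full set of tested regions is not analysed here.

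The sequences at a few of these starts are printed as examples and do not describe the regions as a set. Each window below runs from 250 bases before the gene start to 50 after it, as 300 bases read 5′ to 3′ along the gene, from RefSeq on GRCm38.p6, with every CG dinucleotide in capitals. Each window lay wholly inside every region described here at that gene's start. Dlg2 is shown because its region had the largest fold change of all those that held a whole window, and the other 7 genes were picked once their values had been seen. The first windows belong to Dlg2 (chr7:91090536-91090835, plus strand), Twist2 (chr1:91801211-91801510, plus strand) and Pax7 (chr4:139832919-139833218, minus strand), whose regions were higher in Tie2 KO than in both other groups.
Dlg2: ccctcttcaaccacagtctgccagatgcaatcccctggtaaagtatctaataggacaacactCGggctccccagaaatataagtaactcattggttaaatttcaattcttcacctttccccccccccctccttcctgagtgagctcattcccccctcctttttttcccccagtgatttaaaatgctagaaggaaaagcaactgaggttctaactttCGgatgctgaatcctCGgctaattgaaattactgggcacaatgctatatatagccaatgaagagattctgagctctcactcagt
Twist2: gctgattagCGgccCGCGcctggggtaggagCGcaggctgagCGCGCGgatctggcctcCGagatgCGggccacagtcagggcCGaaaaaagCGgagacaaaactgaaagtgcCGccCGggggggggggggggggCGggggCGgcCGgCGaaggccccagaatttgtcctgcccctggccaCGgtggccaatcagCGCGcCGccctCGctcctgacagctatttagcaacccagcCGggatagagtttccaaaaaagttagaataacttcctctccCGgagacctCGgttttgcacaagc
Pax7: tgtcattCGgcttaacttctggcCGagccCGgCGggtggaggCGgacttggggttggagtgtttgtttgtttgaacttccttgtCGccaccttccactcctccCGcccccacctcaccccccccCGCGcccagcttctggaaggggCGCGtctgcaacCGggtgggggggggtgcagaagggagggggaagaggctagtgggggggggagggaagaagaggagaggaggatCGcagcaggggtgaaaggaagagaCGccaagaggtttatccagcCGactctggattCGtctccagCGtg

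The Twist2 window held 25 CG dinucleotides and the Pax7 window 17, whereas the Dlg2 window held 3. Over the 32851 promoters in the RefSeq table the median was 7, with quartiles of 3 and 20. Over the 21263 promoters of protein-coding genes, the kind of gene shown here, it was 13, with quartiles of 4 and 24. The largest fold change among these regions therefore lay at a start poorer in CG than the median promoter of either set. The starts of both transcription factor genes lay on the rich side of both medians. The letters GGGCGG, a binding sequence of the Sp factor family, were in the Twist2 and Pax7 windows on either strand. They were in 35.7% of all promoters and 46.2% of protein-coding ones, and were not among the letters of the Dlg2 window.

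The next pair of windows belongs to genes that changed sides between the comparisons, Ptgfr (chr3:151837479-151837778, minus strand) and Lpar3 (chr3:146220711-146221010, plus strand). Ptgfr encodes the receptor of prostaglandin F and Lpar3 a receptor of lysophosphatidic acid.
Ptgfr: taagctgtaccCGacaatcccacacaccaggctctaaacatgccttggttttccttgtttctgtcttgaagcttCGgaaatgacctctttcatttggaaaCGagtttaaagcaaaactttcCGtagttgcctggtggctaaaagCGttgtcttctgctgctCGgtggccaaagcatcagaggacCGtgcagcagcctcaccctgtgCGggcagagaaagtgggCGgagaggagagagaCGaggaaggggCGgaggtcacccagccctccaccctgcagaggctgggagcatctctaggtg
Lpar3: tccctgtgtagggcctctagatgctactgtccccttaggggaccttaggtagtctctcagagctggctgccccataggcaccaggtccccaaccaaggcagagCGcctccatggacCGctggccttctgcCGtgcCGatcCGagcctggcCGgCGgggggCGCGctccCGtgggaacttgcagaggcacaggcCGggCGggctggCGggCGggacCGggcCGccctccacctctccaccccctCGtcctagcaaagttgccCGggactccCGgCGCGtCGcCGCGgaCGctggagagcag

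The Ptgfr window held 11 CG dinucleotides and the Lpar3 window 25, and both held GGGCGG.

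The last windows belong to blood genes. Vav1 (chr17:57278850-57279149, plus strand) encodes a signalling protein of blood cells and lends its regulatory sequence to the Vav-Cre transgene. Clec1b (chr6:129397047-129397346, plus strand) and Gp6 (chr7:4397695-4397994, minus strand) encode platelet receptors, and their regions were lower in Tie2 KO.
Vav1: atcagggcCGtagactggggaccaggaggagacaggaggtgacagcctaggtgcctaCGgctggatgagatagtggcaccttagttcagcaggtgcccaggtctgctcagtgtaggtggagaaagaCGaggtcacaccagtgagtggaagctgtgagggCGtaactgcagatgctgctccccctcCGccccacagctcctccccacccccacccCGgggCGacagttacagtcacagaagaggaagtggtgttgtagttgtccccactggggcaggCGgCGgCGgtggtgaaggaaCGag
Clec1b: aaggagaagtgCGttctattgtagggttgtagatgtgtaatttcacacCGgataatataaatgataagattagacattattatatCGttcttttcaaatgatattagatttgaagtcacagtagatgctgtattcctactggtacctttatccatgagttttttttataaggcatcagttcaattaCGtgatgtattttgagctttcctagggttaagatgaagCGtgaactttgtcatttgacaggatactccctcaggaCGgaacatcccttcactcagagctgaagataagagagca
Gp6: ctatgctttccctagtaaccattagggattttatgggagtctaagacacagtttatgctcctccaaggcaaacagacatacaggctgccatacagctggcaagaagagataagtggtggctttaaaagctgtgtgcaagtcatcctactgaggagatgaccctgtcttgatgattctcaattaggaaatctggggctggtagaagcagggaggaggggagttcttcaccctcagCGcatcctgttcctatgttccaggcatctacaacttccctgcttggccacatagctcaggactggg

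The Vav1 window held 11 CG dinucleotides, the Clec1b window 6 and the Gp6 window 1. AGATAA, a binding sequence of the GATA factors of red cells and megakaryocytes, occurred on either strand in the Clec1b and Gp6 windows and in none of the other 6. It occurred in 11.2% of all promoters in the table and in 9.65% of protein-coding ones. A match of this kind describes the letters and is not a site of binding. Composition over all the regions is not given, because 1932 of the 2634 regions, or 73.3%, had a promoter in the table, too few for such a check.

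Regions over a gene start were mostly higher in Tie2 KO relative to Tie2 WT. Of 1267 regions, 1185 were higher and 82 lower, so that 93.5% were higher, with an exact 95% binomial interval of 92.0% to 94.8%. This interval and those below concern the lists, not how embryos vary. They treat regions called in the same samples as separate draws, so they do not measure how far the share would vary in new samples. Among 21900 protein-coding genes, 5.16% had such a higher region and 0.306% a lower one. They made up 40.0% of the 2959 higher regions of any kind in this comparison, but only 13.2% of the 619 lower ones.

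Between Vav KO and Tie2 WT the regions were fewer and less one-sided. There were 186 higher and 80 lower regions, or 69.9% higher (64.0% to 75.4%), at the starts of 0.767% and 0.338% of protein-coding genes. They were 14.2% of the 1313 higher and 12.7% of the 630 lower regions in that comparison, shares that lay close together. Between Tie2 KO and Vav KO, 965 regions were higher in Tie2 KO and 136 lower, or 87.6% higher (85.6% to 89.5%), at the starts of 4.18% and 0.525% of protein-coding genes. These were 33.6% of the 2873 higher and 8.72% of the 1560 lower regions. Since the regions were chosen by these same calls, the counts are a description of the lists.

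The fold changes were modest for most regions. The median log2 fold change was 0.97 for regions higher and -0.795 for regions lower in Tie2 KO relative to Tie2 WT, 0.93 and -1.01 in Vav KO than in Tie2 WT, and 1.02 and -0.865 in Tie2 KO than in Vav KO. Every region had a change of at least 0.58 in size, the smallest in the deposited lists. A change of at least 1 on the log2 scale was reached by 46.9% of the higher and 26.8% of the lower regions in the contrast of Tie2 KO with Tie2 WT. The shares were 40.9% and 51.2% between Vav KO and Tie2 WT, where the lower regions were the larger ones, and 52.3% and 37.5% between Tie2 KO and Vav KO. Median adjusted p ranged over these sets from 1.90e-05 for regions higher in Tie2 KO relative to Tie2 WT to 0.000400 for regions lower in Vav KO.

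**Figure D1:**
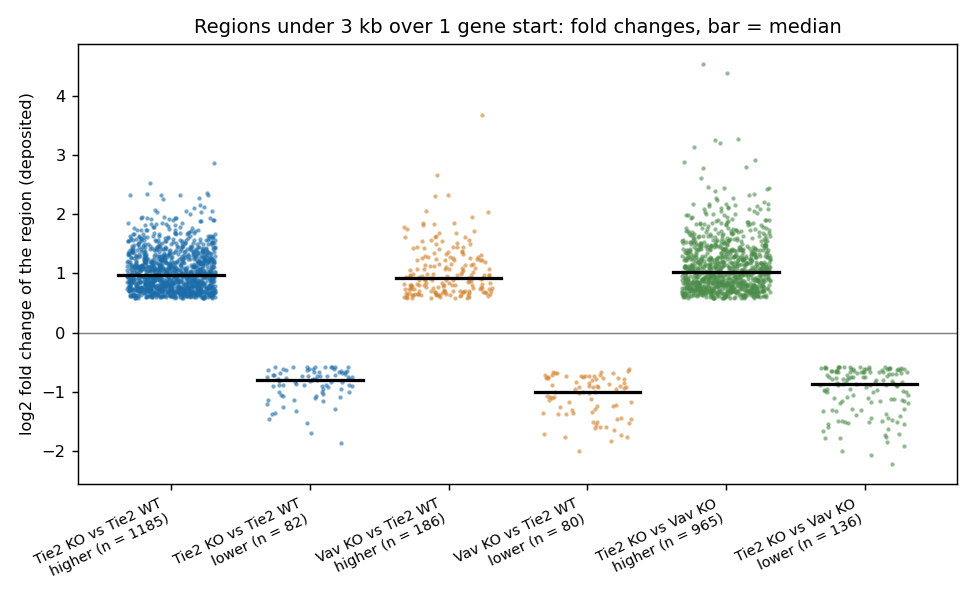
Log2 fold change (vertical axis, as deposited by the authors) of every region under 3 kb over 1 gene start, by comparison and direction. Each dot is a region and black bars are medians; no region lies nearer to 0 than 0.58, and the highest dots are Dlg2 and Plch2 in Tie2 KO against Vav KO, 4.54 and 4.38 in the authors' deposited table.

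Regions over a start changed less than those that stayed upstream. Upstream regions had a median log2 fold change of 1.08 against 0.97 at starts among regions higher in Tie2 KO relative to Tie2 WT, 1.44 against 0.93 in Vav KO than in Tie2 WT, and 1.29 against 1.02 in Tie2 KO than in Vav KO. Lower regions followed the same order, at -0.885 against -0.795, -1.33 against -1.01, and -1.15 against -0.865. Most upstream regions were narrow, with medians of 999 bp to 1199 bp in the sets named here, and the width of a region and its position were not separated.

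The higher regions in Tie2 KO were wide and centred on the start. Their median width was 1799 bp against Tie2 WT and 1599 bp against Vav KO, while the median was 1199 bp for regions higher in Vav KO than in Tie2 WT and 1099 bp to 1199 bp in the 3 lower sets. A width of 999 bp, the smallest in the lists, was found in 10.0% of the regions higher in Tie2 KO relative to Tie2 WT and in 41.5% of the lower ones. At 1999 bp or wider were 39.7% and 3.66% of these, and 2.69% and 2.50% of the regions higher and lower in Vav KO than in Tie2 WT. The gene start lay in the middle part of the region, from 25% to 75% of its length, in 64.6% of regions higher in Tie2 KO relative to Tie2 WT and in 43.9% of the lower ones. The lower ones reached a median of 829 bp upstream but only 470 bp into the gene, against 870 bp and 952 bp for the higher ones. Among regions higher in Tie2 KO relative to Tie2 WT the median log2 fold change was 0.86 at a width of 999 bp and 1.10 at 2599 bp or wider, while among regions lower in Tie2 KO than in Vav KO it was -1.10 at 999 bp and -0.815 from 1599 bp to 1999 bp. Wide higher regions were thus the larger ones in the first set, and narrow lower regions in the second. Genes under the regions higher in Tie2 KO relative to Tie2 WT were longer than those under the lower ones, with a median of 31019 bp against 13346 bp.

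**Figure D2:**
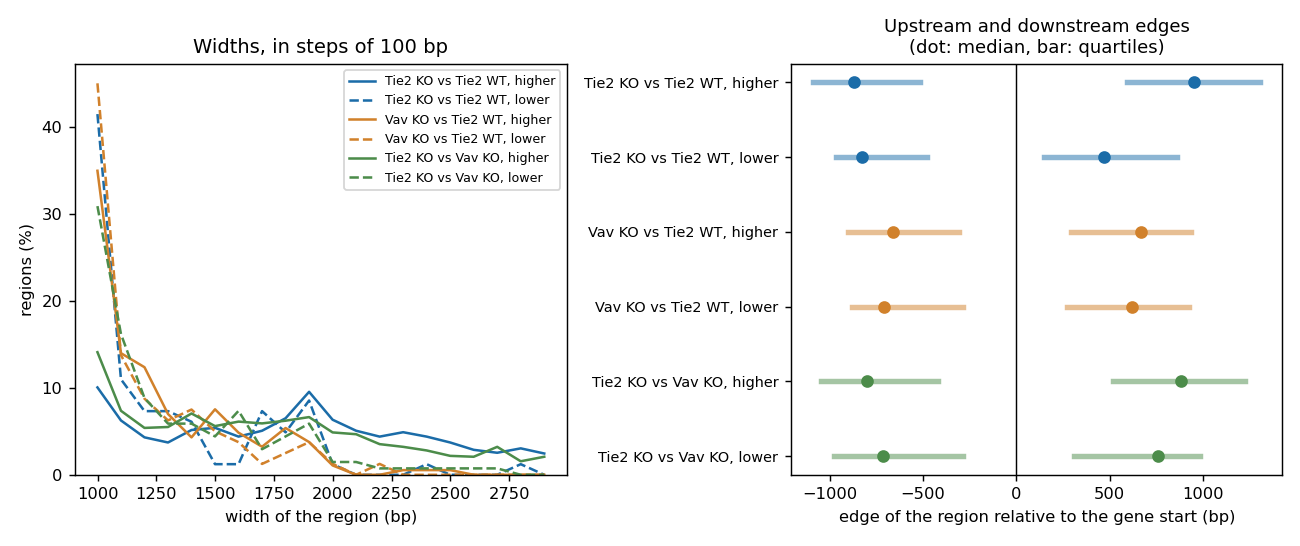
Left, share of regions (%) by width (bp, in steps of 100 bp) for each comparison and direction; right, how far regions reach upstream (negative) and downstream of the gene start in bp, with dots for medians and bars for quartiles. Regions higher in Tie2 KO spread over all widths, whereas the other 4 sets crowd at 999 bp, and regions lower in Tie2 KO relative to Tie2 WT reach a median of 470 bp into the gene.

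The width limit divides a continuous range. Against Tie2 WT, the 29 widest regions higher in Tie2 KO, at 2899 bp, had a median log2 fold change of 1.20 (0.61 to 1.78), and the 38 regions just outside, at 2999 bp, had 1.01 (0.63 to 1.81). Against Vav KO, 20 regions at 2899 bp had a median of 1.165 and 10 at 2999 bp had 0.89. Just inside lay the regions of Clmp, an adhesion molecule, at 1.78 and Adcy2, an adenylyl cyclase, at 1.35 in the authors' deposited table for Tie2 KO against Tie2 WT. Just outside lay those of Slc8a3, a sodium and calcium exchanger, at 1.57 and Pou3f4, a transcription factor, at 1.05 in the authors' deposited table. Between Vav KO and Tie2 WT no region over a single start reached the limit, the widest being that of Vav1 at 2499 bp.

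Genes of developmental transcription factors were often among the starts higher in Tie2 KO. Of 358 such genes, joined from 7 lists, 84 (23.5%) had a region over the start that was higher in Tie2 KO relative to Tie2 WT and 0 a lower one, against 5.16% and 0.306% of all protein-coding genes. Between Tie2 KO and Vav KO, 83 (23.2%) were higher in Tie2 KO and 0 lower, against 4.18% and 0.525%. Between Vav KO and Tie2 WT, 3 were higher and 3 lower (0.838% each, against 0.767% and 0.338% of all protein-coding genes). The median log2 fold changes of the higher genes were 1.045 against Tie2 WT and 1.07 against Vav KO, close to the medians of 0.97 and 1.02 over all higher starts. The narrow single-gene starts were only part of this list's regions: 213 of its genes lay near some region higher in Tie2 KO relative to Tie2 WT, of which 31 had a wider one over the start and 32 one shared with another gene.

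Homeobox genes supplied the most of these starts. Among 39 Hox genes, which set position along the body axis, 10 (25.6%) had a start higher in Tie2 KO relative to Tie2 WT. A start higher than in Vav KO was found at 6 (15.4%). The log2 fold changes ran from 0.86 to 1.96 and from 0.87 to 2.16. Of all protein-coding genes 5.16% and 4.18% had such a start. Hoxb13 stood at 1.96 and 1.64 in the authors' deposited table, with adjusted p of 5.43e-08 and 5.79e-06. Hoxc4 stood at 1.10 and 2.16 there, a larger value against Vav KO than against Tie2 WT. Of 137 other homeobox genes, 40 (29.2%) were higher in Tie2 KO relative to Tie2 WT and 34 (24.8%) higher than in Vav KO. Pax7, a regulator of muscle precursors whose window is printed above, had 1.57 and 1.40 in the authors' deposited table.

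Basic helix-loop-helix genes were higher at 11 of 54 starts (20.4%) against Tie2 WT and at 20 (37.0%) against Vav KO. The shares of all protein-coding genes were 5.16% and 4.18%. The higher helix-loop-helix starts included those of Neurog3 (1.64 and 1.52) and Myod1 (1.45 and 1.58 in the authors' deposited table), which drive endocrine and muscle fates. Of 16 T-box genes, 5 (31.2%) were higher in Tie2 KO relative to Tie2 WT. They were led by Tbx5 of heart and forelimb at 1.62 in the authors' deposited table. Against Vav KO 1 T-box gene was higher (6.25%, against 4.18% of all protein-coding genes). Forkhead genes gave 5 of 44 (11.4%) against each of the other groups and Sox genes 4 (21.1%) and 5 (26.3%) of 19. In the list of zinc finger regulators of development 9 of 49 (18.4%) were higher against Tie2 WT and 12 (24.5%) against Vav KO. Against Vav KO Prdm1 had the largest value, 1.83 in the authors' deposited table. For the 397 genes named Zfp, a family whose many members repress mobile elements, the picture differed. Of them 11 (2.77%) were higher and 5 (1.26%) lower in Tie2 KO relative to Tie2 WT, below and above the shares of all protein-coding genes.

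The 6 developmental regulators between Vav KO and Tie2 WT were Twist2 (1.33), Tbx18 (0.81) and Nkx6-2 (0.64) on the higher side and Hoxd10 (-1.77), Foxa2 (-1.53) and Tlx2 (-0.92) on the lower side in the authors' deposited table. Twist2 directs mesenchymal cells, Foxa2 endoderm and Tlx2 enteric neurons. Foxa2 and Tlx2 were higher in Tie2 KO than in Vav KO, Tlx2 at a narrow region of its own (1.3) and Foxa2 at a wider one (1.05) in the authors' deposited table. Hoxd10 had another region 1590 bp upstream of its start that was higher in Vav KO than in Tie2 WT, at 1.22 in the authors' deposited table, beside the lower one at the start itself.

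**Figure D3:**
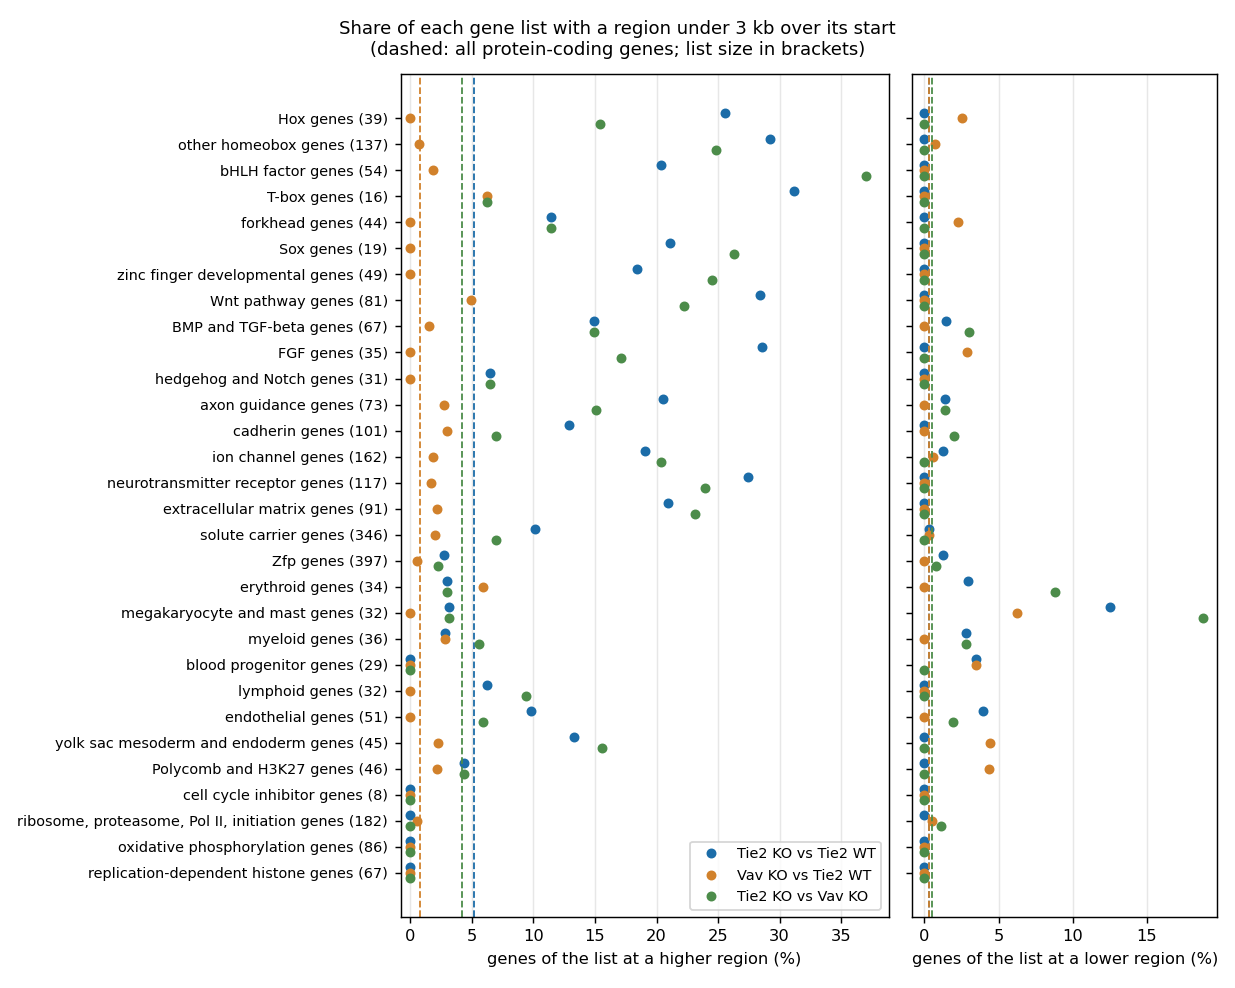
Share of the genes of each list (%, list size in brackets) with a higher (left) or lower (right) region under 3 kb over the start, by comparison. Dashed lines are the shares of all protein-coding genes, 5.16%, 0.767% and 4.18% higher and 0.306%, 0.338% and 0.525% lower; most developmental and neuronal lists lie right of them for Tie2 KO, and megakaryocyte and mast genes lie right of them on the lower side.

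Of 81 Wnt pathway genes, 23 (28.4%) had a start higher in Tie2 KO relative to Tie2 WT and 18 (22.2%) one higher than in Vav KO, against 5.16% and 4.18% of all protein-coding genes, and none a lower one, with medians of 0.97 and 1.025. They included the ligand genes Wnt3a (1.41 against Tie2 WT) and Wnt10a (1.34 and 1.61) and the gene of R-spondin 4, Rspo4, which strengthens Wnt signals (1.33 and 1.76 in the authors' deposited table). Dkk2, an inhibitor, stood at 1.50 and 1.18 and the receptor gene Ror2 at 1.40 and 1.25 in the authors' deposited table. Between Vav KO and Tie2 WT 4 Wnt genes were higher (4.94%, against 0.767% of all protein-coding genes): Wnt9a (0.73), Lgr5 (0.64), Frzb (0.63) and Porcn (0.59 in the authors' deposited table).

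FGF genes gave 10 of 35 starts higher in Tie2 KO relative to Tie2 WT and 6 higher than in Vav KO, with the ligand gene Fgf20 at 1.90 and 1.24 in the authors' deposited table. BMP and TGF-beta genes gave 10 of 67 higher in each of these comparisons, and 1 and 2 lower. The lower ones were Gdf3, a ligand gene, at -0.59 in both comparisons, and Tgfbr1, a TGF-beta receptor gene, at -0.61 against Vav KO in the authors' deposited table. Hedgehog and Notch genes gave 2 of 31 (6.45%) in each, near the shares of all protein-coding genes, 5.16% and 4.18%.

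Genes of neurons and of connective tissue were also found. Neurotransmitter receptor genes were higher at 32 of 117 starts (27.4%) against Tie2 WT and at 28 (23.9%) against Vav KO, with none lower. Htr2c, a serotonin receptor, had 1.39 and 2.89 in the authors' deposited table, and Grik3, a kainate receptor, had 1.86 against Tie2 WT there. Ion channel genes were higher at 31 (19.1%) and 33 (20.4%) of 162 starts, among them the potassium channel gene Kcnk1 at 1.90 against Tie2 WT in the authors' deposited table. In that list 2 (1.23%) were lower against Tie2 WT, Trpv3 (-0.92) and Kcnk7 (-0.79 in the authors' deposited table). Extracellular matrix genes were higher at 19 (20.9%) and 21 (23.1%) of 91 starts. Examples were the laminin gene Lama2 (2.32 and 1.76) and the collagen gene Col15a1 (1.10 and 2.46 in the authors' deposited table). Axon guidance genes gave 15 (20.5%) and 11 (15.1%) of 73, and cadherin genes 13 (12.9%) and 7 (6.93%) of 101. Solute carrier genes gave 35 (10.1%) and 24 (6.94%) of 346, beside 5.16% and 4.18% of all protein-coding genes. Against Tie2 WT 1 axon guidance gene (1.37%) and 1 solute carrier gene (0.289%) were lower. Against Vav KO 1 axon guidance gene (1.37%) and 2 cadherin genes (1.98%) were lower. The lower shares of all protein-coding genes were 0.306% and 0.525%.

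Of 182 genes that every cell uses, for ribosomal, proteasome, RNA polymerase II and initiation factor proteins, none was higher or lower in Tie2 KO relative to Tie2 WT. In Vav KO relative to Tie2 WT 1 was higher, Eif2s3y (1.82), and 1 lower, Polr2c (-0.74 in the authors' deposited table), or 0.549% each against 0.767% and 0.338% of all protein-coding genes. Rpl11 (-0.61) and Rps23 (-0.60 in the authors' deposited table), ribosomal protein genes, were lower in Tie2 KO than in Vav KO, 1.10% of the list against 0.525% of all protein-coding genes. None of 86 oxidative phosphorylation genes, 67 replication-dependent histone genes or 8 cell cycle inhibitor genes had such a region in any comparison. The largest share of all protein-coding genes was 5.16%, so 0 of 8 says little. Other kinds of region lay near some of these genes. Of the 8 inhibitor genes, 4 lay near a region higher in Tie2 KO relative to Tie2 WT and 0 near a lower one. Of these 4, 3 had upstream regions only and 1 a region shared with another gene. Between Tie2 KO and Vav KO, 1 inhibitor gene lay near a region higher in Tie2 KO and 2 near a lower one. Of the histone genes 6 lay near a region lower in Tie2 KO than in Vav KO, 3 of them at shared regions, and 4 near a higher one. The share of all genes near a region of any kind was not computed, so these counts have no background.

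Of 32 megakaryocyte and mast cell genes, 4 (12.5%) had a start lower in Tie2 KO relative to Tie2 WT and 1 a higher one, against 0.306% and 5.16% of all protein-coding genes. Against Vav KO, 6 (18.8%) were lower and 1 (3.12%) higher, where 0.525% and 4.18% of all protein-coding genes were. Clec1b had -1.47 and -1.53 in the authors' deposited table, with adjusted p of 0.000157 and 1.94e-05. Gp6 had -1.33 against Tie2 WT there, and Tubb1, a platelet tubulin gene, -0.84 and -0.64 in the authors' deposited table. Further lower starts against Vav KO included those of Treml1 (-1.05), P2ry12 (-1.01) and the mast cell protease gene Cpa3 (-0.89 in the authors' deposited table). Clec1b and Tubb1 thus stood lower in Tie2 KO than in both other groups, whereas the Gp6 start was called against Tie2 WT only. Rab27b, which serves granule release, went the other way at 0.79 and 0.98 in the authors' deposited table. Vav KO against Tie2 WT had 2 lower starts of this list (6.25%, against 0.338% of all protein-coding genes) and none higher. They were Rab27b (-1.65) and Gp1bb (-0.87 in the authors' deposited table). As the cells were sorted in bulk, fewer cells of a type and less open chromatin per cell cannot be told apart.

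Of 34 erythroid genes, 1 was higher and 1 lower in Tie2 KO relative to Tie2 WT (2.94% each). Among all protein-coding genes 5.16% were higher there and 0.306% lower. In Vav KO relative to Tie2 WT 2 were higher (5.88%, against 0.767%) and none lower (against 0.338%). In Tie2 KO than in Vav KO 1 was higher (2.94%, against 4.18%) and 3 were lower (8.82%, against 0.525%). Slc4a1, which encodes the band 3 anion exchanger of red cells, was higher in both knockouts than in Tie2 WT, at 0.87 in Tie2 KO and 0.97 in Vav KO in the authors' deposited table. Hbb-bs, an adult beta globin gene, was lower in Tie2 KO relative to Tie2 WT at -1.08 in the authors' deposited table. It has a nearly identical neighbour, and how reads matching both were placed is not stated in the labels. Lmo2 (-0.69), Bcl11a (-0.61) and Epor (-0.58 in the authors' deposited table), the genes of a blood cofactor, a globin repressor and the erythropoietin receptor, were lower in Tie2 KO than in Vav KO. None of these 3 had such a start against Tie2 WT.

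Of 36 myeloid genes, 1 was higher and 1 lower in Tie2 KO relative to Tie2 WT (2.78% each). The shares of all protein-coding genes there were 5.16% and 0.306%. In Vav KO relative to Tie2 WT 1 was higher (2.78%, against 0.767%). Between the knockouts 2 were higher (5.56%, against 4.18%) and 1 lower (2.78%, against 0.525%) in Tie2 KO than in Vav KO. Csf1r, the receptor gene of macrophage growth, was higher in Vav KO than in Tie2 WT (0.92) and lower in Tie2 KO than in Vav KO (-1.33 in the authors' deposited table). C1qb, a complement gene of macrophages, was higher in Tie2 KO than in both other groups, at 1.16 and 0.88 in the authors' deposited table. Tyrobp, an adaptor gene of myeloid receptors, stood at -0.58 against Tie2 WT and Itgax, an integrin gene, at 1.29 against Vav KO in the authors' deposited table. Cd48, the only gene found of the 29 in the blood progenitor list, was lower in both knockouts than in Tie2 WT, with -0.89 and -0.84 in the authors' deposited table. That was 3.45% of the list, against 0.306% and 0.338% of all protein-coding genes. The B cell regulators Pax5 (1.01 and 1.24) and Ebf1 (0.88 and 0.86 in the authors' deposited table) were higher in Tie2 KO than in both other groups. They were the only 2 of 32 lymphoid genes higher against Tie2 WT (6.25%, near the 5.16% of all protein-coding genes). Against Vav KO 3 of the list were higher (9.38%, against 4.18%), and none was lower in either comparison.

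Endothelial genes, the cell type in which Tie2-Cre also acts, were on both sides. Of 51, 5 (9.80%) were higher in Tie2 KO relative to Tie2 WT and 2 (3.92%) lower, against 5.16% and 0.306% of all protein-coding genes. Gja5, a connexin gene of arteries, had 0.83, Cldn5 and Clec14a 0.71 and Aplnr 0.66 in the authors' deposited table, while Lyve1 had -0.67 and Icam2 -0.65 there. The last of the higher ones was Apln, at 0.64 in the authors' deposited table. Against Vav KO 3 endothelial genes (5.88%, against 4.18% of all protein-coding genes) were higher in Tie2 KO, Clec14a (1.02), Sox17 (1.00) and Efnb2 (0.64 in the authors' deposited table). There 1 was lower (1.96%, against 0.525%), Icam2 (-0.74 in the authors' deposited table). Of 45 yolk sac mesoderm and endoderm genes, 6 (13.3%) were higher and none lower in Tie2 KO against Tie2 WT, and 7 (15.6%) were higher and none lower against Vav KO, beside 5.16% and 4.18% of all protein-coding genes. They included Hand1 (1.08 and 1.41) and the keratin gene Krt19 (1.21 and 1.19 in the authors' deposited table). In Vav KO relative to Tie2 WT 1 of the 45 was higher (2.22%, against 0.767%) and 2 were lower (4.44%, against 0.338%), Pdgfra (-1.57) and Foxa2 (-1.53 in the authors' deposited table). The defining endothelial genes could not be set against levels, and the share of other cells in the sorted samples was not tested.

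**Figure D4:**
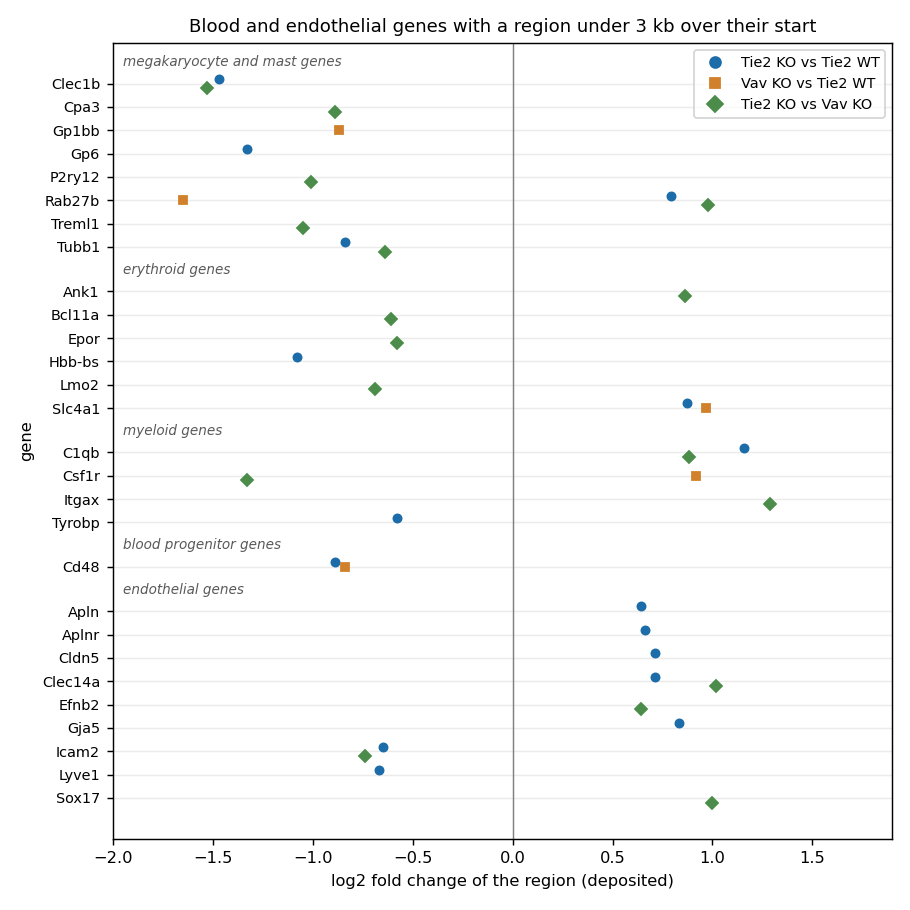
Log2 fold change (horizontal axis, as deposited) at blood and endothelial genes of the lists with a region under 3 kb over its start, by comparison. The platelet genes Clec1b, Gp6 and Tubb1 lie left of 0 for Tie2 KO against Tie2 WT, and Rab27b and Csf1r have points on both sides.

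The genes that name the study's transgenes and its target were placed as follows. Ezh2 was in no list, in any class of region. Tek, the gene of Tie2, had a single region of 12899 bp over its start that was higher in Tie2 KO relative to Tie2 WT (2.90) and one of 12299 bp higher than in Vav KO (2.92 in the authors' deposited table), both far beyond the width limit. Vav1 had a region of 2499 bp that was higher in Vav KO than in Tie2 WT, at 0.81 (adjusted p 5.14e-07) in the authors' deposited table, and a region of 4399 bp that was lower in Tie2 KO than in Vav KO, at -0.90 there. The Vav-Cre transgene holds Vav1 regulatory sequence, and its reads and those of the gene itself cannot be told apart here. The same limit holds for Tek, since only Tie2 KO carried Tie2-Cre. Reads from any Tek sequence in that transgene cannot be told apart from reads of the gene, so the Tek values need not reflect the gene's own start.

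Of 46 Polycomb genes, 2 (4.35%) were higher in Tie2 KO against each of the other groups, where 5.16% and 4.18% of all protein-coding genes were. In Vav KO relative to Tie2 WT 1 was higher (2.17%, against 0.767%) and 2 (4.35%, against 0.338%) were lower. Asxl3, a partner in removing the histone H2A mark of the other Polycomb complex, was higher in Tie2 KO than in either other group (0.75 against Tie2 WT and 1.23 against Vav KO) and lower in Vav KO than in Tie2 WT (-1.46 in the authors' deposited table). Pcgf6, a subunit of PRC1 variants, was lower in Vav KO than in Tie2 WT (-0.73) and higher in Tie2 KO than in Vav KO (0.68 in the authors' deposited table). Uty, the chromosome Y relative of the H3K27 demethylase gene Kdm6a, was higher than in Tie2 WT in Tie2 KO (0.99) and in Vav KO (1.29 in the authors' deposited table). Eif2s3y, also on chromosome Y, was higher in Vav KO at 1.82 in the authors' deposited table, and Kdm6a itself, on chromosome X, had a wider region that was lower in Tie2 KO relative to Tie2 WT, at -0.79 there. The labels do not give the sex of the embryos, so the sex of the samples and their group cannot be told apart for these genes.

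Only a few of the genes with the largest fold changes belonged to the lists above. In the contrast of Tie2 KO with Tie2 WT, Sulf1, which trims heparan sulfate at the cell surface, had the largest value at 2.86 in the authors' deposited table, at chr1:12691402-12693500 with an adjusted p of 4.95e-08. It was followed by Ptk6, an epithelial kinase (2.53), Jaml, an adhesion molecule of leukocytes (2.36), Slitrk3 of synapses (2.34), and the noncoding RNA gene D730050B12Rik and the pseudogene Gm6498 (2.33 each in the authors' deposited table). The smallest adjusted p belonged to Nfasc, a cell adhesion gene of axons, at 3.47e-08 with a log2 fold change of 1.76, to Pak7, a kinase (1.60), and to the calcium channel gene Cacna1e (1.78 in the authors' deposited table). On the lower side Armt1, a protein methyltransferase gene, led with -1.87, followed by the protease gene Prss32 (-1.70), Gm6116 (-1.53), Clec1b, the plexin gene Plxnb3 (-1.38) and Bicra, a subunit of a SWI/SNF remodelling complex (-1.36 in the authors' deposited table). Krtcap3 had the smallest adjusted p among the lower ones, 5.95e-08, at -0.75 in the authors' deposited table.

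Between Vav KO and Tie2 WT the leading genes were of other tissues too. Sftpa1, the gene of lung surfactant protein A, had 3.68 in the authors' deposited table, at chr14:41131702-41132700 in a region of 999 bp with an adjusted p of 2.89e-06. Behind it came Pigr, an epithelial antibody transporter (2.67), Gabrg1, a GABA receptor subunit (2.33), Myom3 of the sarcomere (2.30), Vit (2.05) and the neuronal gene Stmn2 (2.03 in the authors' deposited table). Grin1, an NMDA receptor subunit, had the smallest adjusted p at 5.57e-08, with 1.44 in the authors' deposited table. Lower were Fscn3 (-2.01), the potassium channel gene Kcne1 (-1.83), Hoxd10, Gm3604 (-1.76), Lrrc71 (-1.73) and the prolactin receptor gene Prlr (-1.72 in the authors' deposited table). Gtf2h2, a subunit of general factor TFIIH, had the smallest adjusted p of these at 1.14e-06, with -1.01 in the authors' deposited table.

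Between Tie2 KO and Vav KO the 2 largest values of all stood at the starts of Dlg2, a scaffold of synapses, with 4.54, and Plch2, a phospholipase C gene, with 4.38 in the authors' deposited table. The Dlg2 region at chr7:91090202-91091300 was 1099 bp wide, and the same start was also higher in Tie2 KO relative to Tie2 WT at 2.12 in the authors' deposited table, while Plch2 was in no other list. Cfap65 of cilia (3.28), Thsd7b (3.26), Cpxm2 (3.20) and the angiotensin receptor gene Agtr1b (3.14 in the authors' deposited table) came next. For Cfap65 and Cpxm2 the value against Tie2 WT was 1.19 and 1.09 in the authors' deposited table, well below that against Vav KO, although neither was called between Vav KO and Tie2 WT. Lower in Tie2 KO were Lcn10 (-2.22), 1700020D05Rik (-2.07), Armt1 (-2.01), the bradykinin receptor gene Bdkrb1 (-1.92), Capn8 (-1.85) and the lymphocyte receptor gene Ly9 (-1.78 in the authors' deposited table). Armt1 and Bicra (-1.55 in the authors' deposited table) were thus lower in Tie2 KO against either group.

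At 23 genes the start was called in all 3 comparisons, by narrow regions whose edges could differ from one to the next. For 13 of them accessibility was higher in Tie2 KO than in Vav KO and higher in Vav KO than in Tie2 WT. Twist2 had 2.15 in Tie2 KO and 1.33 in Vav KO against Tie2 WT, and 1.05 between the knockouts, in the authors' deposited table. Slc6a17, a neuronal transporter gene, had 1.36, 1.36 and 1.19, and Nr2e1, a nuclear receptor gene of neural stem cells, 1.42, 1.38 and 0.95 in the authors' deposited table. For both genes the knockouts hardly differed when set against Tie2 WT, so their order rests on the direct contrast alone. The Nr2e1 regions also differed in width, at 2899 bp in Tie2 KO against Tie2 WT and 1099 bp in the other comparisons. For Myh14, a nonmuscle myosin gene, the value was 1.59 in Tie2 KO but 0.65 in Vav KO in the authors' deposited table. These genes encode a mesenchymal regulator, a transporter, a nuclear receptor and a motor protein, and share no family.

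At the other 10 of the 23 genes the knockouts lay on opposite sides of Tie2 WT, higher in Tie2 KO and lower in Vav KO. Ptgfr had 0.77 in Tie2 KO and -1.36 in Vav KO against Tie2 WT, and 2.12 between the knockouts, in the authors' deposited table. Its regions overlay each other, at chr3:151836102-151838300, chr3:151836402-151838400 and chr3:151836002-151838400. Lpar3 had 0.84, -1.24 and 1.92, and Fam189a1 1.06, -1.26 and 1.81 in the authors' deposited table. Ncald, a neuronal calcium sensor gene, had 0.89, -1.60 and 1.44, and Syt10, a synaptotagmin gene, 0.82, -1.37 and 1.35 in the authors' deposited table. Beyond the 23 genes, Fgf9 was opposite in the same way, with 0.83 and -1.11, and its region between the knockouts was wider than the limit, at 0.93 in the authors' deposited table. In none of these 11 was the start lower in Tie2 KO and higher in Vav KO than in Tie2 WT. Only 82 of the 1267 regions between Tie2 KO and Tie2 WT were lower (6.47%), so few genes could have shown that order.

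**Figure D5:**
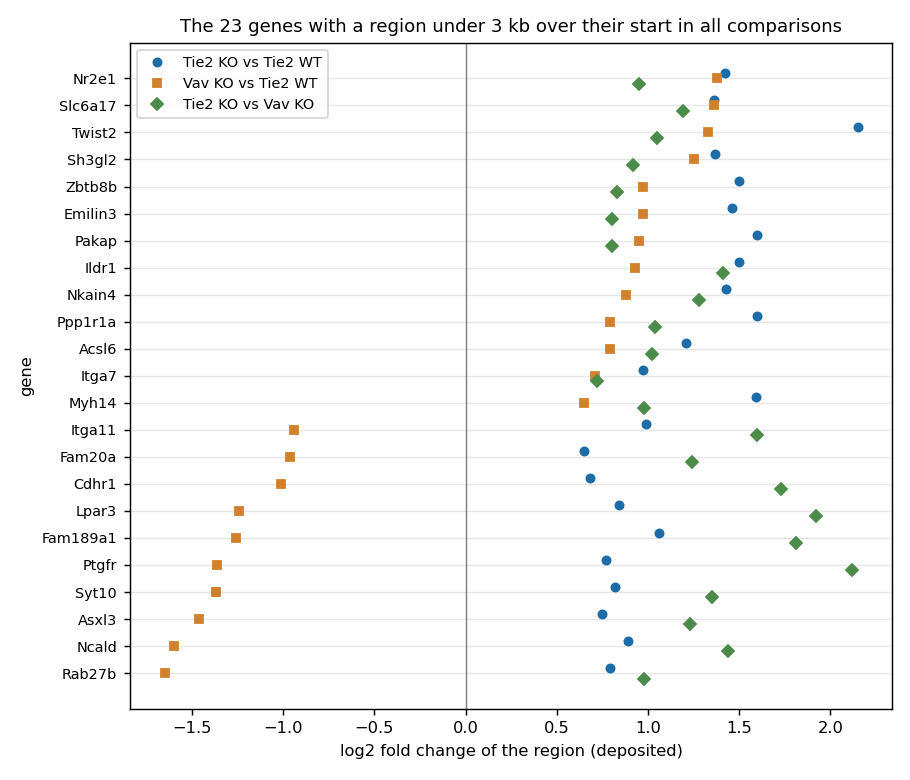
Log2 fold change (horizontal axis, as deposited) of the 23 genes with a region under 3 kb over their start in all 3 comparisons, ordered by the value in Vav KO against Tie2 WT. The upper 13 genes have all points right of 0, and the lower 10, from Itga11 to Rab27b, have the Vav KO points left of 0 and both Tie2 KO points right of it.

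Some genes had a further called region upstream of the start. In Tie2 KO against Tie2 WT this held for 133 of the 1185 genes with a higher start, with 138 further regions, of which 136 were higher and 2 lower. Against Vav KO it held for 155 of 965 genes, with 148 regions higher and 20 lower. Between Vav KO and Tie2 WT, 12 of 186 genes with a higher start had 13 further regions, of which 6 were higher and 7 lower, and 6 of 80 with a lower start had 6, of which 1 was lower and 5 higher. Start and upstream region thus pointed apart at most further regions of that comparison. Chst2, a sulfotransferase gene chosen after its values were seen, had a start at 0.59 and a region 4531 bp upstream at -4.55 between Tie2 KO and Vav KO in the authors' deposited table. Rfx4, a factor of cilia genes chosen the same way, had a start at 0.83 and a region 1147 bp upstream at -3.50 between Vav KO and Tie2 WT in the authors' deposited table.

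Most of the genes were protein-coding. Of the 1185 starts higher in Tie2 KO relative to Tie2 WT, 1131 were protein-coding, 51 long noncoding and 3 pseudogenes, and among the 82 lower ones 67, 13 and 2. Noncoding genes and pseudogenes were thus 4.30% plus 0.253% of the first set and 15.9% plus 2.44% of the second. Over the 28097 noncoding and pseudogene entries of the RefSeq table, 0.192% had a higher and 0.0534% a lower start. In Vav KO against Tie2 WT, 18 and 6 such entries (0.0641% and 0.0214%) were higher and lower, and in Tie2 KO against Vav KO, 50 and 21 (0.178% and 0.0747%). Of 1180 microRNA genes 2 were found, Mir124a-2 (1.53) and Mir375 (1.16 in the authors' deposited table), both higher in Tie2 KO than in Vav KO. The first is typical of neurons and the second of endocrine cells. Their share of the list, 0.169%, was close to the 0.178% of noncoding and pseudogene entries. The rule leaves out regions that cover a whole gene, so it can miss very short genes. In this comparison 76 microRNA genes lay near a higher region of some kind, 18 at shared regions and 11 at regions that covered the gene or lay inside it, and 74 lay near a lower one. Of 230 antisense and opposite-strand RNA genes 4 (1.74%) were higher and 2 (0.870%) lower in Tie2 KO relative to Tie2 WT. The shares of noncoding and pseudogene entries were 0.192% and 0.0534%. Evx1os beside a homeobox gene led the higher ones at 1.84 in the authors' deposited table. ATAC-seq reads carry no strand, so a start of such a gene and that of an overlapping partner cannot be told apart.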

How the data were processed

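ATAC-seq was done on 14 samples of sorted yolk sac progenitors. The tools named in the submitters' processing notes, without their roles, are HOMER 4.10, MACS2 2.1.2, Picard, SAMtools 1.3.1, Bowtie2 and FastQC, and the build is mm10. Scaling of libraries, treatment of duplicates, shifting of reads for the Tn5 cut, and the test that called regions were not given in the sources used here. Each deposited line holds, per the file headers, the authors' log2 fold change of a region, its adjusted p-value, and other measures of width and distance to the gene start in bp. TKO, TWT and VKO in the names of the lists were taken to mean Tie2 KO, Tie2 WT and Vav KO.

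The 6 lists were joined in pairs, a region was kept where it was paired with 1 gene identifier, overlapped its start and was under 2999 bp wide, and medians and counts were computed with Python 3.11.15 and pandas 2.3.3. Of 10679 lines, 10669 matched the RefSeq gene table of GRCm38.p6, which gave names and gene types. The percentages of all protein-coding genes use its 21900 genes. No test was run, since the regions were chosen by the calls themselves. Intervals of shares are exact 95% binomial intervals (Clopper-Pearson). The members and the 32 gene lists were chosen with earlier results of these data known. Named genes were taken by a rule: Ezh2, Tek and Vav1, the 6 largest fold changes and 3 smallest adjusted p in each comparison and direction, 2 on each side of the width limit, up to 4 of each gene list, 8 called in all comparisons and 6 opposite ones. Apln, Chst2, Rfx4 and 7 of the windows shown were added after their values were seen. A few genes picked this way are not reported here. The rule and the sequence counts were checked on made-up rows. Alternatives were another width limit, a stricter adjusted p, a larger fold change and regions shared between genes.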

Additional observations from a re-analysis of the deposited data

How the results depend on the processing

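The values computed under the alternatives kept their direction, 44 of them staying close to the reported value and 13 moving. With the width limit 1 kb lower, 715 regions were higher in Tie2 KO relative to Tie2 WT, or 90.1% of the regions left, with a median log2 fold change of 0.92. Under the same limit 84.2% were higher in Tie2 KO than in Vav KO, with a median of 0.98. With an absolute log2 fold change of at least 1, 556 regions were higher and 22 lower in Tie2 KO relative to Tie2 WT (96.2% higher), 76 higher and 41 lower in Vav KO than in Tie2 WT, and 505 higher and 51 lower in Tie2 KO than in Vav KO (90.8% higher). These alternatives keep fewer regions by construction. Without a width limit, with regions shared between genes, with 1 value per gene, or with an adjusted p of at most 0.01, the values stayed within 1.5 times the count, the interval of the share or that of the median.

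No paired analysis was possible because the lists hold no value per sample. Leaving out each replicate was not possible for the same reason. Depth and the spread between embryos remain unknown, the lists hold called regions only, and for a start missing from a list it is unknown whether it was tested. The 3 comparisons share groups, and Vav KO has no control from its own line here.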
